A study of Mus musculus with 15 samples.

Results

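The mitochondrial fatty acid oxidation enzymes described here are 10 genes of mouse plantaris muscle, chosen by gene symbol out of the 20406 genes listed in the deposited count table. They encode the carnitine shuttle (Cpt1b, Cpt2), the acyl-CoA dehydrogenases for very long, long and medium chains (Acadvl, Acadl, Acadm), the trifunctional protein (Hadha, Hadhb), and the electron transfer flavoprotein with its oxidoreductase (Etfa, Etfb, Etfdh). All 10 were listed, and all 10 passed the filter on low counts in both fits. RNA was sequenced from 15 plantaris muscles of adult male mice, a fast hindlimb muscle that extends the ankle, to ask what weighted running changes in muscle RNA and what is left of it after rest.

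All 5 groups held 3 libraries and carried the HSA-GFP transgenes, in which the human skeletal actin promoter drives a reverse tetracycline transactivator in muscle fibres, and this in turn switches on a green fluorescent histone 2B that labels fibre nuclei. The experiment began at 4 months of age. Group 6M_PoW did 8 weeks of PoWeR (progressive weighted wheel running, in which the wheel carries a growing load) and was sampled at 6 months, beside untrained 6M_UT of the same age. Group 9M_PoW+DT did 8 weeks of PoWeR and then 12 weeks without it, and was sampled at 9 months beside untrained 9M_UT. The group called 6M_POW_LD here has titles of trained replicates 4 to 6 and library identifiers beginning with LD, a term that no source used here spells out. The treatment field went against the title in 9 of 15 libraries, namely all 6 of the 9-month libraries and all 3 LD libraries, so groups and directions rest on the titles. Identifiers follow the age and the LD label (separate series for 6-month, 9-month and LD muscles). Neither the age of a mouse nor the LD label can thus be told apart from the series of its library. No label states that replicates came from different mice, so a p-value here speaks only to the spread among these libraries.

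Working muscle burns fatty acids in the mitochondrial matrix. Long-chain fatty acids are bound to coenzyme A, passed to carnitine by CPT1 on the outer membrane, carried inward, and returned to coenzyme A by CPT2. Each turn of the beta-oxidation spiral then begins with an acyl-CoA dehydrogenase, whose electrons pass through the electron transfer flavoprotein and its oxidoreductase to ubiquinone, and for long chains the trifunctional protein carries out the remaining steps. Endurance muscle is known for a high capacity of this pathway, whose genes are textbook targets of the PPAR and ERR nuclear receptors and their coactivator PGC-1alpha.

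The trifunctional protein genes are a head-to-head pair, and the stretch between them is shown because both are transcribed away from it. Hadha, the alpha subunit with the hydratase and dehydrogenase activities, lies on the minus strand at chr5:30118304-30155162, and Hadhb, the beta subunit with the thiolase activity, on the plus strand at chr5:30155248-30184593 (mm10, whole gene). The 85 bases between the starts in the deposited table, chr5:30155163-30155247, are given on the plus strand and have a GC content of 69.4%. They were read from RefSeq's GRCm38.p6 windows, whose starts differ from those of the deposited table. The 250 bases before the RefSeq start are chr5:30154981-30155230 for Hadha and chr5:30155003-30155252 for Hadhb. No motif searched here is marked in capitals in the 85 bases.
Hadha to Hadhb: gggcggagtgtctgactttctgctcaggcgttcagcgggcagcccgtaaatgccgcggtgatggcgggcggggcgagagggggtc

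Promoter windows of the acyl-CoA dehydrogenases follow, since ratios among their transcripts did not overlap between some of the groups compared (values further on). A link between sequence and ratio was not tested. Each is the 250 bases before the RefSeq start (GRCm38.p6), on the gene's own strand, all 3 of these genes being on the minus strand. Capitals mark AGGTCA, the core element bound by many nuclear receptors, in either orientation. They span chr1:66863310-66863559 for Acadl, chr3:153944644-153944893 for Acadm and chr11:70015429-70015678 for Acadvl.
Acadl: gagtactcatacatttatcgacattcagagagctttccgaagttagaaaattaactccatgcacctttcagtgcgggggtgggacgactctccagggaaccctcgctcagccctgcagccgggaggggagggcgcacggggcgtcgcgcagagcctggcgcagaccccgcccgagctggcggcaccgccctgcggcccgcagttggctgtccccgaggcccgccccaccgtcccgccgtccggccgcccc
Acadm: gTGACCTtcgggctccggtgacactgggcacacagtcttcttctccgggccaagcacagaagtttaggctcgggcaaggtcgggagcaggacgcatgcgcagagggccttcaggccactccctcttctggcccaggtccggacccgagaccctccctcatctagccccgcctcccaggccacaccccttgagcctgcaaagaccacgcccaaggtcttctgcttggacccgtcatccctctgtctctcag
Acadvl: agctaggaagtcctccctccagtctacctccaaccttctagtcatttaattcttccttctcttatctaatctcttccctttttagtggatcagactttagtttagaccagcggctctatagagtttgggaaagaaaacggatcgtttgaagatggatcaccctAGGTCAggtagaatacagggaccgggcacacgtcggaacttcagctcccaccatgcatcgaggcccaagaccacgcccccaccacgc

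Windows of 300 bases (250 before to 50 after the start) matched 9 of the 10 genes by symbol, all but Cpt1b. Their GC content ran from 50.7% to 70.3%, lowest in Acadvl and highest in Acadl, against a median of 52.7% over all windows. Searched on both strands, AGGTCA was in 2 of the 9 windows (Acadm, from position -249 on the minus strand, and Acadvl, from -87) and in 16.3% of all 32851 windows. DR1, a direct repeat of AGGTCA with a base between the copies, was in 0 of 9 and in 0.0396% of all windows, and TCAAGGTCA, the textbook ERR element, in 0 of 9 and in 0.423%. CCAAT, a general promoter element, was in 3 of 9, those of the electron transfer genes Etfa, Etfb and Etfdh, and in 37.4% of all windows. Both longer elements contain AGGTCA, and these are letter matches only.

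The other genes lie on mm10 as follows, each given as the whole gene from the first to the last base in the deposited table. The shuttle genes are Cpt1b at chr15:89416405-89425863 and Cpt2 at chr4:107903981-107923610, both on the minus strand. The dehydrogenases are Acadvl at chr11:70010183-70015411, Acadl at chr1:66830839-66863277 and Acadm at chr3:153922357-153944632. The electron transfer genes are Etfa at chr9:55454508-55512243, Etfdh at chr3:79603788-79629500, both minus, and Etfb at chr7:43444083-43457800, plus. In the deposited table, Acadvl overlaps Dvl2 and Etfdh overlaps 4930579G24Rik, both on the other strand. Acadl, Etfb, Etfdh and Cpt1b overlap further gene models on their own strand. The counts of these 5 genes could thus include reads of a neighbour, as the counting method is not given. Use of strand, also not given, could set apart only the neighbours on the other strand.

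All 10 transcripts were abundant in every library. Per length, as CPM (counts scaled to a library total of 1000000) divided by the kilobases of the principal transcript, the median over 15 libraries was highest for Acadm at 181 CPM per kb, then Acadl at 155, Acadvl at 147, Etfb at 136, Cpt1b at 117, Etfa at 108, Hadha at 107, Etfdh at 69.7, Hadhb at 51.7 and Cpt2 at 30.5. The ranges over libraries of neighbours in this order overlapped from Acadm through Hadha, so that part of the order is not fixed beyond the spread. Below it, Etfdh reached at most 84.5 and Hadha at least 93.9 CPM per kb, Hadhb reached at most 60.5 and Etfdh at least 61.0, and Cpt2 reached at most 41.3 while Hadhb reached down to 40.2. Rounded expected counts behind single values ran from 1269 (Cpt2) to 12495 (Hadha) per library.

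As a set, the 10 transcripts ranged over the whole series about as far as other abundant genes did. The highest library over the lowest was 1.31-fold for Acadm and 1.67-fold for Acadl, with a median of 1.37 over the 10 genes. Over the 2247 genes with a mean of at least 50 CPM, that median was 1.40. Some other genes of lipid use spanned far more. Pdk4, the kinase that shuts off pyruvate dehydrogenase and is induced by fasting, ran from 430.0 to 6133 CPM (14.3-fold), and Ucp3, a mitochondrial carrier that also responds to fatty acids, from 46.6 to 639 CPM (13.7-fold). In untrained 6-month muscle alone, Pdk4 stood at 6133, 627 and 2962 CPM in replicates 1 to 3, whereas the same libraries had 358, 358 and 392 CPM of Cpt1b. The narrowest range among the listed pathway genes was that of Crat, the matrix carnitine acetyltransferase, at 1.20-fold.

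**Figure D1:**
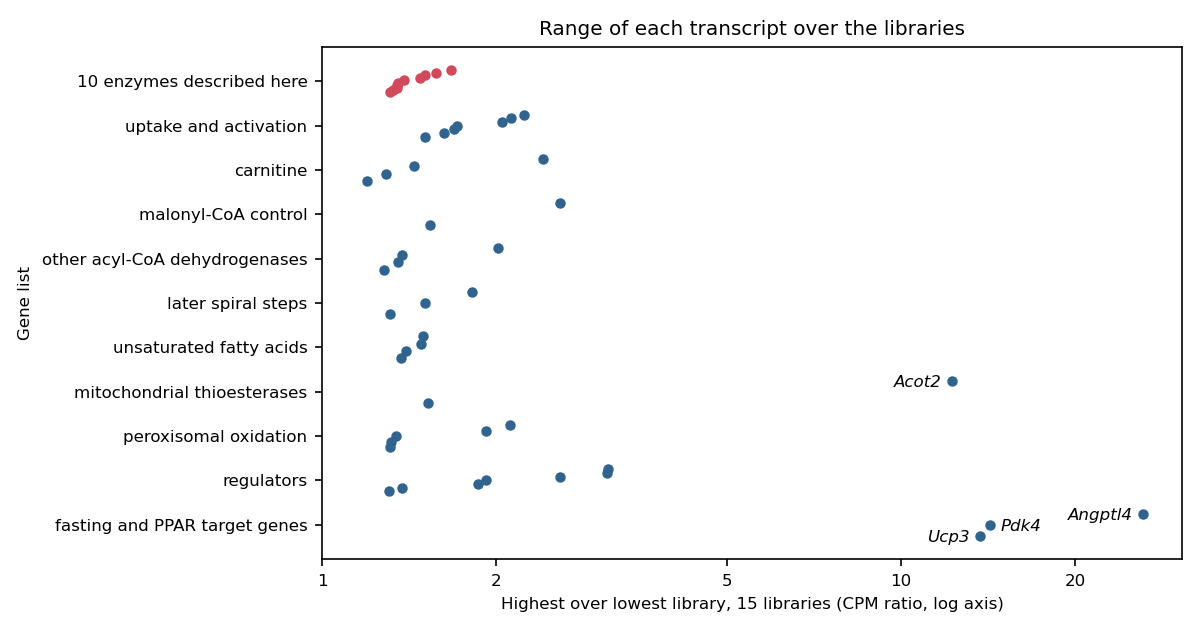
Each point is a gene with at least 1 CPM in every library, placed by the ratio of its highest to its lowest library over all 15 (CPM ratio, log axis), with rows for the 10 enzymes (red) and 10 lists of other lipid genes (blue). The 10 enzymes sit between 1.31 and 1.67, while Pdk4, Ucp3, Acot2 and Angptl4 lie above 12, Angptl4 at 26.2 with only 1.13 CPM in its lowest library.

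Libraries differed from each other across the whole set, also within a group. Untrained 6-month replicate 3 and trained replicate 1 were above the gene's own median over the 15 libraries for 10 of 10 enzymes, by 0.20 and 0.17 log2 units on average. Untrained 6-month replicate 1 was above it for only 2 of 10, at -0.05. At 9 months all 6 libraries averaged below the median, between -0.05 and -0.20, with detrained replicate 3 the lowest (0 of 10 above). That library also held 91.4 CPM summed over 6 adipocyte markers (Adipoq, Lep, Plin1, Cidec, Retn, Cfd, none at 0), against 5.14 to 31.8 in the other 14 libraries. The part of fat cells in these levels was not tested. Together the 10 transcripts took 0.206% to 0.276% of a library's counts.

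**Figure D2:**
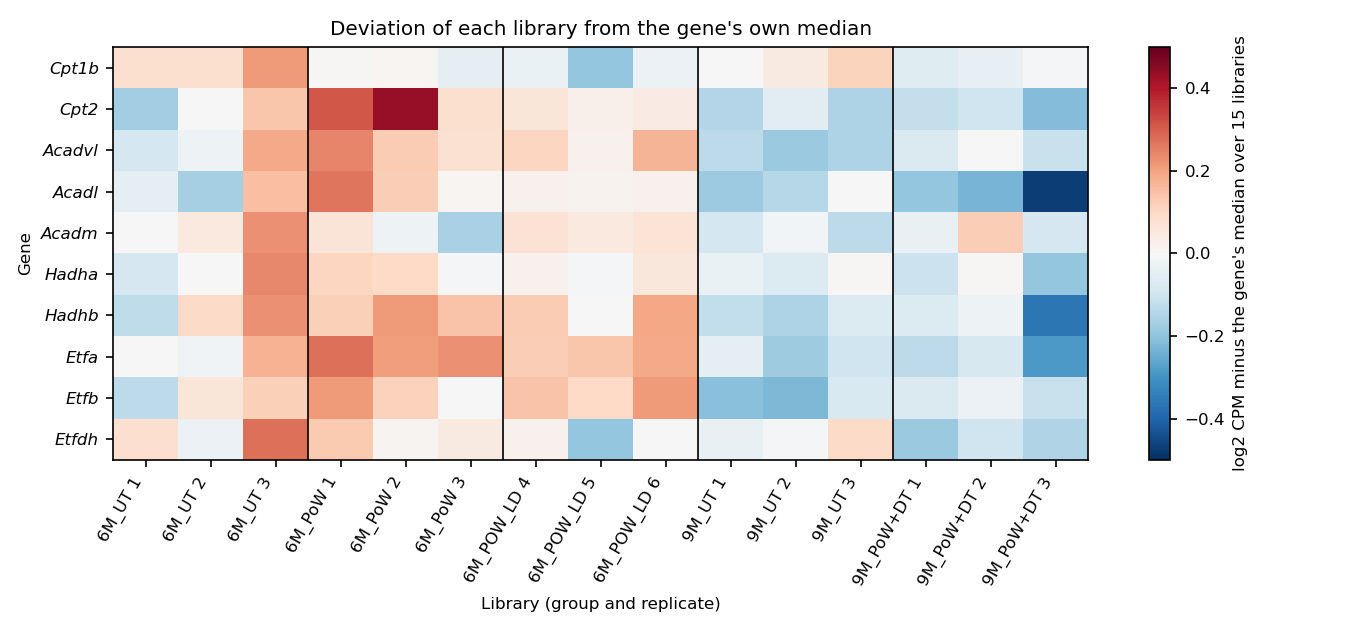
Colour shows log2 CPM minus the gene's median over 15 libraries, with a row per enzyme and a column per library, black lines separating the groups. Untrained 6-month replicate 3 is red in all 10 rows, the 9-month columns are mostly blue, and detrained replicate 3 is blue throughout.

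Across the whole series, rounded library totals ran from 18865037 to 27688826 counts. The 6 skeletal muscle markers (Ckm, Acta1, Des, Mb, Tnnt3, Myh4) summed to between 78458 and 114410 CPM, none of them at 0, which matches the labelled tissue. In bulk muscle, fewer cells of a type and less RNA per cell cannot be told apart.

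The effect of training was measured by setting 6M_PoW against 6M_UT. The matrix-side shuttle enzyme Cpt2 and the flavoprotein subunit Etfa had the largest positive differences and the outer-membrane enzyme Cpt1b the largest negative one, but none of the 10 enzymes passed the test. By edgeR's quasi-likelihood test with Benjamini-Hochberg adjustment over 14919 genes, 0 of 10 had an adjusted p under 0.05, and so had 0% of all genes. At an unadjusted p under 0.05 there were 3 of 10, against 9.75% of all genes, and DESeq2 and limma-voom called 0 of 10 as well. The fitted log2 differences were above 0 for 7 of 10, where 50.2% of all genes were, with a median of 0.09, against 0.00 over all genes, and the median was 0.16 without untrained replicate 3 and 0.01 without untrained replicate 1.

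Cpt2 stood at 64.1, 72.4 and 79.8 CPM in the untrained libraries and at 89.9, 98.0 and 76.4 CPM in the trained ones. The groups overlapped, because trained replicate 3 lay under untrained replicate 3. The log2 difference was 0.29 ± 0.10 (SE), or 22.2% with a 95% interval from 5.83% to 41.2%, at an adjusted p of 0.347 in edgeR's quasi-likelihood test. Cpt1b, the step that malonyl-CoA inhibits, stood at 358, 358 and 392 CPM untrained and at 339.8, 340.2 and 327 CPM trained. All 3 trained libraries were below all 3 untrained ones, by -9.02% (interval -17.1% to -0.124%, adjusted p 0.508 in the same edgeR test).

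The acyl-CoA dehydrogenases did not lie on one side. Acadl was at 289, 266 and 331 CPM untrained and at 359, 324 and 300.3 CPM trained, and Acadvl at 300.1, 314 and 364 against 377, 348 and 336 CPM. In both, untrained replicate 3 overlapped the trained libraries. Acadm was at 370.2, 383 and 434 CPM untrained and 387, 364 and 331 CPM trained, again overlapping. The log2 differences were 0.15 ± 0.10 for Acadl, 0.12 ± 0.08 for Acadvl and -0.13 ± 0.08 for Acadm. Single libraries moved each of them by over 1.5 times. Without untrained replicate 3 they were 0.24 for Acadl, 0.21 for Acadvl and -0.06 for Acadm. Acadl was at 0.08 without untrained replicate 2 or trained replicate 1, Acadvl at 0.06 without untrained replicate 1 and 0.07 without trained replicate 1, and Acadm at -0.07 without trained replicate 3.

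In the electron transfer chain, Etfa was at 151, 149 and 170.3 CPM untrained and at 183, 174 and 176 CPM trained, with every trained library above every untrained one. Its log2 difference was 0.18 ± 0.08, or 13.5% (interval 1.38% to 27.1%), with an adjusted p of 0.449 by edgeR's quasi-likelihood test. Its partner subunit Etfb was at 123 ± 10.9 CPM (SD, n = 3) untrained and 131 ± 9.65 trained, and Etfdh, which hands the electrons to ubiquinone, at 179.6 ± 19.5 and 173 ± 7.38. Hadha was at 449 ± 53.3 against 452 ± 19.7 CPM, and Hadhb at 111 ± 13.6 against 118 ± 4.03. Groups that did not overlap were thus those of Etfa (higher, as in 7.89% of all genes) and Cpt1b (lower, as in 8.28%), 2 of 10 genes, where 16.2% of all genes had groups apart in either direction. Over the 10 genes the 95% intervals reached from -19.3% to 41.2%.

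**Figure D3:**
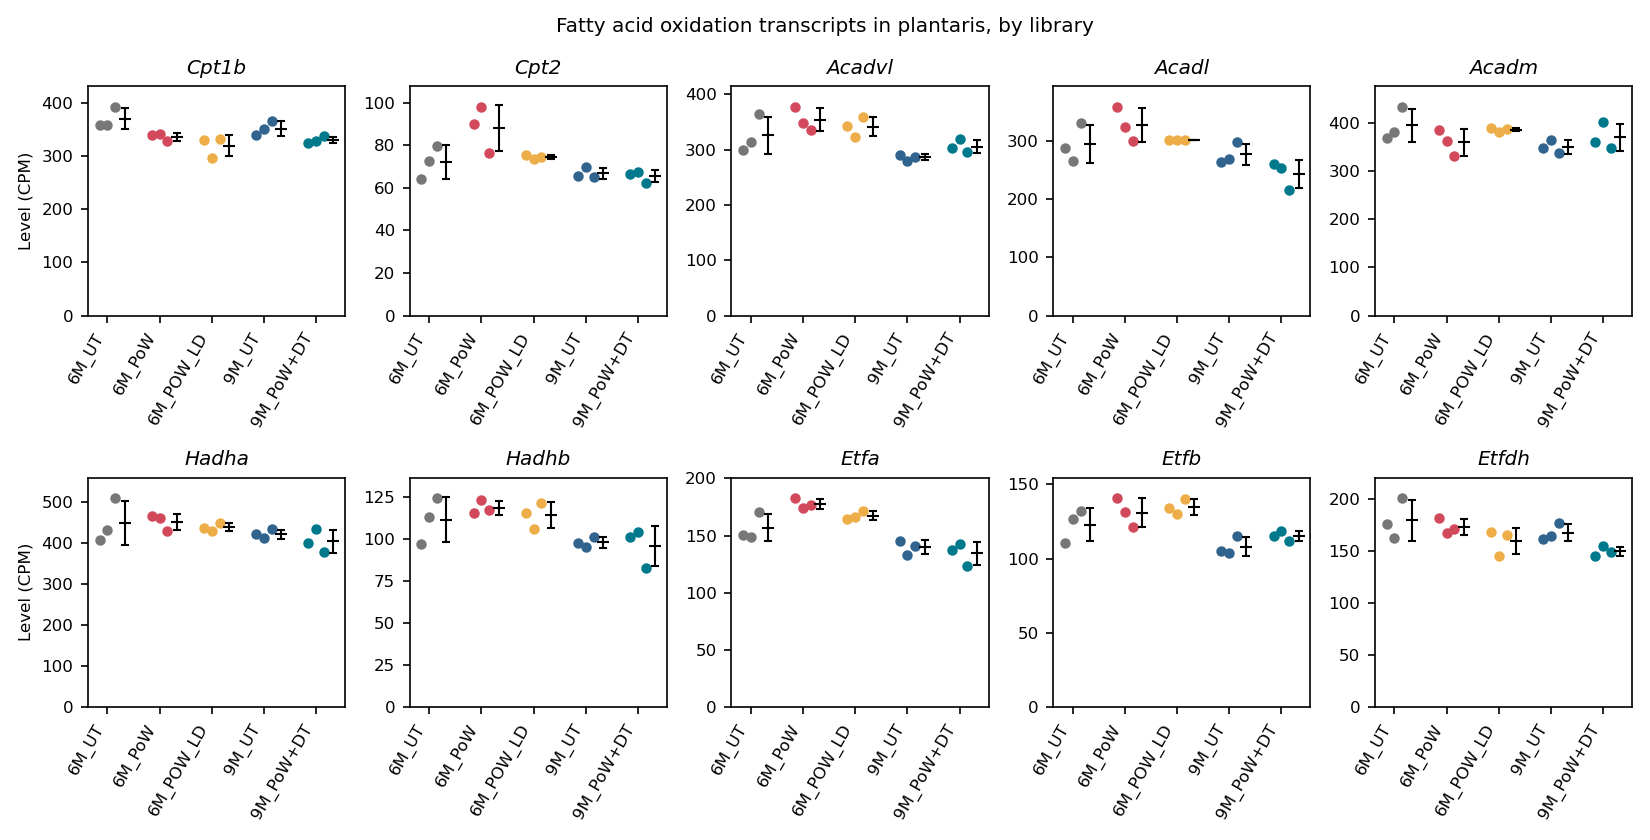
Each panel shows an enzyme's level in CPM (axis from 0), with coloured points for the 3 libraries of each group and a black bar with whiskers for the mean ± SD. Most groups overlap within a panel, with trained Etfa above, and trained Cpt1b below, all untrained 6-month libraries.

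Summed markers of other cells also stood apart in this comparison, and their part in these values was not tested. The 6 macrophage markers, none at 0, summed to 36.8 to 40.5 CPM untrained and 52.2 to 69.4 CPM trained. The 6 fibro-adipogenic progenitor markers, none at 0, had 306 to 321 and 368 to 442 CPM, and the 6 endothelial markers 252 to 294 and 319 to 347 CPM. Of the endothelial markers 5 had fitted differences above 0 and 1, Flt1, below (means of 74.9 and 70.7 CPM). The 6 adipocyte markers overlapped in sum, at 18.1 to 31.8 and 13.5 to 25.1 CPM, with all 6 fitted differences below 0. The 2 brown adipocyte markers measured (Cidea and Elovl3, none at 0) had 0.645 to 0.991 and 0.989 to 1.40 CPM, overlapping. Ucp1, also listed, was absent from the deposited table, and only Cidea passed the filter on low counts. The 6 slow and oxidative fibre markers, also none at 0, overlapped, at 2922 to 4205 CPM untrained and 3336 to 4816 CPM trained. Most of that sum was Myh2, with means of 3584 CPM untrained and 3972 CPM trained. Of the 6 fitted differences 1 was above 0 and 5 were below, with a median log2 difference of -0.33.

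Ratios between enzymes within a library cancel its scaling, and the groups were apart in 4 of the 6 ratios described here. The 6 ratios were chosen after the members' counts had been seen, so that count is a description only. These are ratios of CPM, not per length, and are read only between groups. Acadl over Acadm was 0.779, 0.694 and 0.761 in the untrained libraries and 0.927, 0.892 and 0.907 in the trained ones. Every trained library was above every untrained one, with means of 0.745 ± 0.0452 and 0.909 ± 0.0178 (SD, n = 3). Acadvl over Acadm was 0.811, 0.819 and 0.838 against 0.976, 0.958 and 1.02, also apart. Relative to the medium-chain dehydrogenase, both longer-chain ones were thus higher in each trained library.

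Cpt1b over Cpt2 was 5.58, 4.94 and 4.91 untrained and 3.78, 3.47 and 4.28 trained, and Etfdh over Etfa was 1.17, 1.09 and 1.18 against 0.994, 0.959 and 0.968. In both, the groups were apart in the other direction. By contrast, the 2 pairs that form a single protein complex overlapped, with means of 4.04 untrained and 3.83 trained for Hadha over Hadhb, and of 1.28 and 1.36 for Etfa over Etfb. With 3 against 3 libraries the smallest p of an exact two-sided permutation test is 0.1, which each of the 4 separated ratios had, so none could pass 0.05. Adjusted over the 30 ratio tests made (6 ratios, 5 comparisons), that p is 0.231. Of all 45 pairs among the 10 genes, 22 (48.9%) had ratios whose groups did not overlap, where 17.8% of all pairs among genes of at least 50 CPM did. Pairs share genes, so these are a description only.

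**Figure D4:**
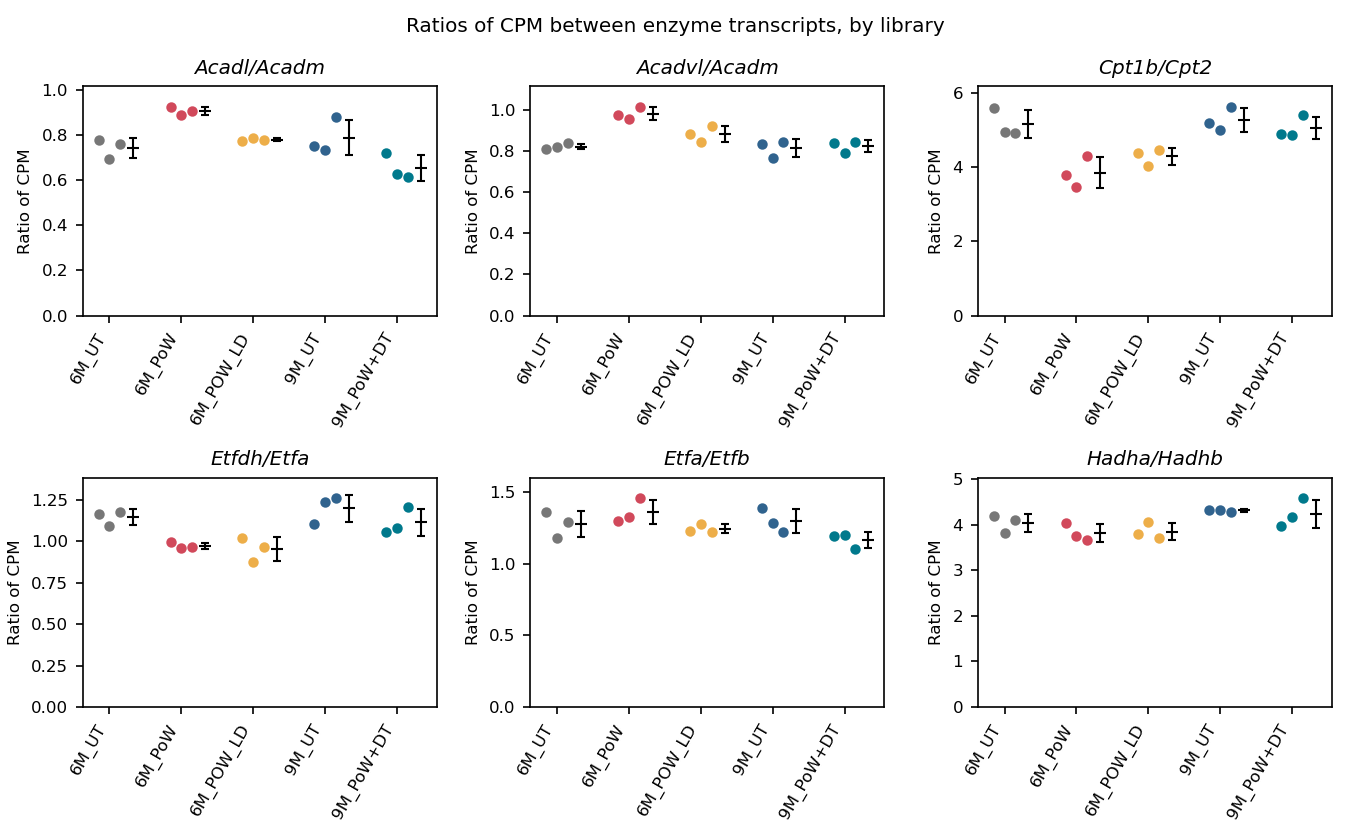
Panels show 6 ratios of CPM between enzymes of a library (axis from 0), with points for libraries by group and a black bar with whiskers for the mean ± SD. In the trained group Acadl/Acadm (0.892 to 0.927) and Acadvl/Acadm sit above, and Cpt1b/Cpt2 and Etfdh/Etfa below, all untrained 6-month libraries, while Hadha/Hadhb and Etfa/Etfb overlap.

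Around the 10 enzymes, 43 other genes of fatty acid use were listed, of which 42 were tested, all but Acaa1b. In training 0 of 42 passed edgeR's test (0 by DESeq2), with 4 at an unadjusted p under 0.05, and the median log2 difference was -0.06, with 16 above 0 and 26 below. Esrra, the nuclear receptor ERRalpha, had the smallest p of them, at 122, 123 and 116 CPM untrained and 99.5, 98.8 and 106 CPM trained. All trained libraries were below all untrained ones, with a log2 difference of -0.25 ± 0.08 (adjusted p 0.28, edgeR). The heart and muscle fatty acid carrier Fabp3 had -0.40 ± 0.16 and the spiral dehydrogenase Hadh 0.24 ± 0.11. The peroxisomal gene Acaa1a was at 35.7 ± 2.29 CPM untrained and 41.2 ± 2.62 CPM trained (SD, n = 3). Ppargc1a, which encodes PGC-1alpha, had -0.06 ± 0.39, an interval from -48.5% to 78.3%.

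What remained after detraining was measured by setting 9M_PoW+DT against 9M_UT, where the long-chain dehydrogenase Acadl and Etfdh had the largest negative differences and Etfb and Acadvl the largest positive ones. None of the 10 passed edgeR's quasi-likelihood test, where 0.0201% of all genes did, and 0 of 10 had an unadjusted p under 0.05, against 6.52% of all genes. DESeq2 and limma-voom also called 0. The median log2 difference was -0.04 (0.00 over all genes), with 3 above 0 and 7 below, where 49.1% of all genes were below, and it was 0.01 without detrained replicate 3. Of the 42 other fatty acid genes 0 passed edgeR's test, with 1 at an unadjusted p under 0.05.

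Acadl was at 263, 269.7 and 298 CPM in 9M_UT and at 261, 253 and 215 CPM in 9M_PoW+DT. The detrained libraries were all lower, though the nearest pair differed by little, and replicate 3 was far below the rest. The log2 difference was -0.19 ± 0.10, or -12.2% (interval -23.9% to 1.38%, adjusted p 0.77 by edgeR's quasi-likelihood test). Without detrained replicate 3 it was -0.11 ± 0.10. Etfdh was at 161, 165 and 177 CPM untrained and 146, 154 and 149 CPM detrained, again with no overlap (-10.7%, interval -20.6% to 0.497%). Cpt1b, at 338, 349 and 365 against 325, 329 and 337 CPM, was lower without overlap too. Acadvl was the one enzyme higher without overlap, at 291, 280.3 and 287 CPM untrained and 303, 319 and 295 CPM detrained. These 4 of 10 genes, 3 lower and 1 higher, compare with 11.9% of all genes, 5.7% lower and 6.19% higher. Over the 10 genes the intervals reached from -23.9% to 20.9%. Beside these values, the 6 adipocyte markers summed to 15.6 to 30.9 CPM untrained and 26.9 to 91.4 CPM detrained, the 6 fibro-adipogenic progenitor markers to 360.5 to 386 and 307 to 349 CPM, and the 6 endothelial markers to 281 to 304 and 228 to 280.8 CPM, with no marker at 0. The progenitor markers were mixed, with fitted differences above 0 for 2 and below 0 for 4. Dcn, the most abundant of them, averaged 263 CPM untrained and 222 CPM detrained. Dpt was higher without overlap, at 20.9 to 23.3 CPM untrained and 25.4 to 29.3 CPM detrained. The 2 brown adipocyte markers measured, Cidea and Elovl3, summed to 0.826 to 1.18 CPM untrained and 0.347 to 0.693 CPM detrained, with Elovl3 at 0 in 1 library of each group. Cidea carried that sum, with means of 0.912 CPM untrained and 0.417 CPM detrained. Elovl3 went the other way, with means of 0.0678 and 0.133 CPM. The 6 slow and oxidative fibre markers overlapped in sum, at 2937 to 4217 CPM untrained and 2254 to 3793 CPM detrained, with all 6 fitted differences below 0. The part of the cells with these markers was not tested.

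Cpt2 and Etfa, which led in training, lay close to their controls here. Cpt2 was at 65.4, 69.8 and 65.0 CPM in 9M_UT and at 66.6, 67.5 and 62.3 CPM in 9M_PoW+DT, a log2 difference of -0.03 ± 0.10. Etfa was at 146, 133 and 141 against 138, 143 and 123 CPM, a difference of -0.05 ± 0.08. Both overlapped. The remaining genes overlapped as well, with log2 differences from -0.06 for Hadha to 0.10 for Etfb.

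Of the ratios, Acadl over Acadm was 0.755, 0.736 and 0.880 in 9M_UT and 0.722, 0.629 and 0.615 in 9M_PoW+DT, without overlap and on the other side from the trained libraries. Etfa over Etfb was also apart, with means of 1.30 ± 0.0857 and 1.16 ± 0.0554. Acadvl over Acadm, Cpt1b over Cpt2, Etfdh over Etfa and Hadha over Hadhb overlapped. Each separated ratio again had the smallest p of the exact permutation test, 0.1 (0.231 adjusted). Of the 45 pairs, 19 (42.2%) did not overlap, against 13.2% of all pairs.

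The difference between the detraining and training effects was tested as a contrast in the same fit. It was negative for Acadl (-0.34 ± 0.14), Cpt2 (-0.32 ± 0.14) and Etfa (-0.24 ± 0.11) on the log2 scale and positive for Acadm (0.22 ± 0.12, and 0.14 without untrained 6-month replicate 3). Those first 3 had an unadjusted p under 0.05, where 9.48% of all genes did, with adjusted p of 0.445, 0.489 and 0.514 in edgeR's quasi-likelihood test, so 0 of 10 passed (0 also by DESeq2 and limma-voom), where 0.0268% of all genes passed. The interval for Acadl ran from -35.5% to -3.21%. The median over the 10 genes was -0.09, with 7 below 0, where 49.4% of all genes were, and -0.18 without untrained 6-month replicate 3. Esrra lay on the opposite side, at 0.44 ± 0.11 (adjusted p 0.222, edgeR), with 110.6 to 129.6 CPM in detrained and 99.1 to 108 CPM in untrained 9-month muscle, no overlap. Of the 42 other fatty acid genes 0 passed edgeR's test, and 1 of the alternatives called 1 of them.

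**Figure D5:**
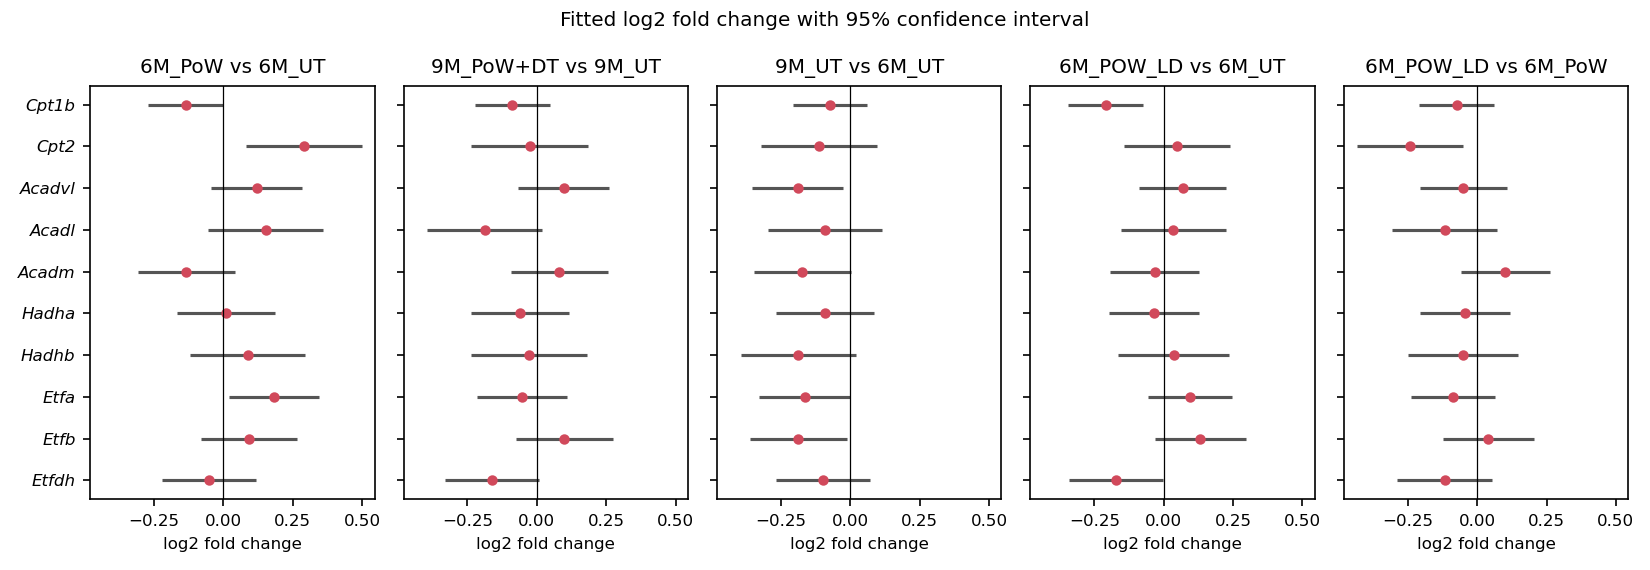
Points are the fitted log2 fold changes of the 10 enzymes and bars their 95% intervals, with a panel for each of 5 comparisons on a shared axis. Cpt2 and Etfa lie above 0 in training, all 10 points lie below 0 in 9M_UT against 6M_UT, and Cpt1b lies furthest below 0 in 6M_POW_LD against 6M_UT.

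Between the untrained groups, 9M_UT against 6M_UT, all 10 enzymes had fitted differences below 0, where 51% of all genes did. The median was -0.14 (-0.01 over all genes) and the single values ran from -4.93% (Cpt1b) to -12.2% (Acadvl). None of the 10 passed edgeR's quasi-likelihood test (0 by DESeq2 and by limma-voom), and 0.0134% of all genes did. The set's position leans on untrained 6-month replicate 3: without it the median was -0.07, Hadha was at 0.01, and Acadvl, Etfa, Acadm and Hadhb were each at -0.10. Cpt1b was at 0.03 where the LD libraries were counted as untrained.

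Acadvl, the first dehydrogenase for the longest chains, was at 300.1, 314 and 364 CPM at 6 months and 291, 280.3 and 287 CPM at 9 months. Etfa was at 151, 149 and 170.3 against 146, 133 and 141 CPM, and Acadm at 370.2, 383 and 434 against 349, 366 and 339 CPM. These 3 genes had every older library below every younger one, 3 of 10 where 6.47% of all genes were lower without overlap, and 0 were higher without overlap, where 5.34% of all genes were (11.8% in either direction). Acadvl, Etfb and Etfa had an unadjusted p under 0.05, as had 6.72% of all genes, with adjusted p from 0.693 to 0.736 by edgeR. Etfb was at 123 ± 10.9 CPM at 6 months and 108 ± 6.29 at 9 months, and Hadhb at 111 ± 13.6 and 97.8 ± 3.07, both overlapping. The 10 intervals reached from -24.0% to 8.33%. The 6 macrophage markers summed to 36.8 to 40.5 CPM at 6 months and 47.7 to 53.4 CPM at 9 months, and the 6 fibro-adipogenic progenitor markers to 306 to 321 and 360.5 to 386 CPM, none at 0, and their part was not tested. The 6 slow and oxidative fibre markers overlapped in sum, at 2922 to 4205 CPM at 6 months and 2937 to 4217 CPM at 9 months. Of their fitted differences 5 were above 0 and 1 below, and their part was not tested either.

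Of the 45 pair ratios 2 (4.44%) did not overlap, against 14% of all pairs of genes of at least 50 CPM. Hadha over Hadhb, at 4.04 ± 0.200 and 4.32 ± 0.0256, was one of them. Of the 42 other fatty acid genes 0 passed (edgeR and DESeq2), with 2 at an unadjusted p under 0.05, and 37 lay below 0, with a median of -0.13. Esrra was at -0.22 ± 0.08 and Fabp3 at -0.37 ± 0.16.

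The LD libraries were set against both 6-month groups in a fit of all 15 libraries (15181 genes). As they form their own identifier series, a difference of the LD group and one of the series cannot be told apart. Against 6M_UT, Cpt1b was at 358, 358 and 392 CPM untrained and 330.5, 296 and 331 CPM in LD replicates 4 to 6. All LD libraries were below all untrained ones, by a log2 difference of -0.21 ± 0.06, or -13.5% (interval -21.2% to -5.02%), which missed the threshold in edgeR's quasi-likelihood test (adjusted p 0.0684) and passed it in DESeq2 (adjusted p 0.026). Over the other alternatives tried, the adjusted p of Cpt1b ran from 0.0527 to 0.279. So 0 of 10 were called by edgeR and limma-voom and 1 by DESeq2, where edgeR called 4.99% of all genes. Etfdh was at 176, 162 and 201 against 168, 145 and 166 CPM (-0.17 ± 0.08), overlapping, and was at -0.08 without untrained replicate 3 and -0.11 without LD replicate 5. With Cpt1b it made 2 of 10 at an unadjusted p under 0.05, against 20% of all genes. The median of the 10 was 0.04, and 0.12 without untrained replicate 3. Cpt1b was 1 of 10 lower without overlap, where 12.7% of all genes were, and 0 were higher, where 12.6% were (25.2% in either direction).

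Against 6M_PoW, whose titles the LD libraries share, Cpt2 was at 89.9, 98.0 and 76.4 CPM and in LD at 75.4, 73.7 and 74.5 CPM, without overlap (-0.24 ± 0.09, adjusted p 0.202 by edgeR's quasi-likelihood test), and -0.16 without trained replicate 2. The 3 LD values of Cpt2 lay within the untrained range of 64.1 to 79.8. Etfa, at 183, 174 and 176 against 164, 166 and 172 CPM, was the other gene without overlap, 2 of 10, both lower, where 10.7% of all genes were lower and 21.4% were apart in either direction. By edgeR, limma-voom and DESeq2 0 of 10 were called, where edgeR called 2.4% of all genes, and 1 of 10 had an unadjusted p under 0.05, against 14.3%. Acadl was tight in LD, at 302 to 303 CPM. Its ratio to Acadm, 0.776 to 0.789, lay below all trained libraries and overlapped the untrained ones. Cpt1b over Cpt2 in LD, at 4.01 to 4.45, was below all untrained libraries and overlapped the trained ones. The share of the 45 pairs without overlap was 48.9% against untrained, where all pairs had 38.7%, and 31.1% against trained, where all pairs had 36.4%. The 2 LD comparisons share the LD libraries. Against 6M_PoW, 0 of the 42 other fatty acid genes passed edgeR's test, and alternatives called at most 2. At an unadjusted p under 0.05 there were 2 higher and 8 lower (23.8%, against 14.3% of all genes). Brown adipocyte markers were apart here too, at 0.989 to 1.40 CPM trained and 1.76 to 2.30 CPM in LD. The 6 slow and oxidative fibre markers overlapped in sum, at 3336 to 4816 CPM trained and 3598 to 5569 CPM in LD, with all 6 fitted differences above 0. The part of either was not tested.

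Among the 42 other fatty acid genes, 4 were called lower in LD against 6M_UT, where 2.83% of all genes were, and 0 higher, where 2.15% were. They were Abcd3, a peroxisomal fatty acid transporter (-0.30 ± 0.08, adjusted p 0.0318), Hsd17b4, a peroxisomal beta-oxidation enzyme (-0.46 ± 0.12, 0.0367), Ech1, an isomerase for unsaturated chains (-0.31 ± 0.09, 0.0441), and Slc27a1, an uptake protein (-0.57 ± 0.15, 0.0452), all by edgeR's quasi-likelihood test. Abcd3 was at 73.8, 69.6 and 78.2 CPM untrained and at 59.5, 60.4 and 60.2 CPM in LD. Slc27a1 was at 135, 109.8 and 169 CPM against 93.2, 82.5 and 103 CPM. No LD library reached an untrained one in these 4 genes. The count was 9 by DESeq2, 3 by limma-voom, and 0 when the fit held only these 2 groups or left out any one of the LD libraries or untrained replicate 3. At an unadjusted p under 0.05 there were 13 lower and 2 higher, against 10.3% and 9.72% of all genes. In the same comparison fibro-adipogenic progenitor markers (6, none at 0) summed to 306 to 321 CPM untrained and 387 to 481 CPM in LD, and macrophage markers to 36.8 to 40.5 and 56.0 to 67.8 CPM. Endothelial markers (6, none at 0) summed to 252 to 294 CPM untrained and 298 to 349.8 CPM in LD, and brown adipocyte markers (Cidea and Elovl3, none at 0) to 0.645 to 0.991 and 1.76 to 2.30 CPM. Of the endothelial markers 5 had fitted differences above 0 and 1 below. The part of these cells was not tested.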

How the data were processed

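Per the labels' protocols, RNA of snap-frozen muscle was extracted using TRIzol together with the Zymo MicroPrep Kit. The authors' deposited table gives expected counts for each gene in all 15 libraries, and 26.9% to 31.9% of the values in a library are not whole numbers. The submitters' processing notes name STAR 2.7.3a, DESeq2, Partek and the build mm10 but not what each did. How reads were counted, whether by strand, and with which annotation is not stated in any source used here.

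Expected counts were rounded. Genes that passed edgeR's filterByExpr were normalised by TMM and fitted with edgeR's quasi-likelihood model (edgeR 4.0.16, R 4.3.3, robust, 1 mean per group). Training, detraining, their difference and the 9-month against 6-month comparison came from 12 libraries (14919 genes), and the LD comparisons from 15 (15181 genes). P-values were adjusted by Benjamini-Hochberg over all genes of a comparison and called under 0.05. SEs and 95% intervals follow from the same fit. CPM use 1 scaling over all 15 libraries. The principal transcript was taken from GENCODE M21, which had the same gene starts and ends for all 10 members. No pair of libraries within a group was a duplicate (reduced chi-square of 10.1 to 48.4). The scripts were tested on simulated data.

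All 10 enzymes are named in every comparison. Of the other fatty acid genes, those called were named, or else up to 4 with the smallest unadjusted p under 0.05, and 8 genes of the pathway were allowed throughout. In detraining and in LD against 6M_PoW only counts of them are given. Members and lists were chosen with earlier results of these data known. The 6 ratios were chosen after the members' counts had been seen, and the 45 pairs after the ratios. Alternatives were DESeq2 1.42.0, limma-voom (limma 3.58.1), library totals, other filters, other sets of libraries, a replicate block, exchanged labels and leaving out each library. They were not run on the ratios. Library scaling cancels in a ratio, but the choice of libraries and labels does not. Exchanged labels would reverse the direction of the detraining ratios. With the LD libraries counted as trained, Acadl over Acadm would overlap in training (LD from 0.776, untrained up to 0.7795). Acadvl over Acadm, Cpt1b over Cpt2 and Etfdh over Etfa would stay apart there. With the LD libraries counted as untrained, Cpt1b over Cpt2 would overlap in training (LD from 4.01, trained up to 4.28). Etfdh over Etfa would overlap as well (LD 0.874 to 1.02, trained 0.959 to 0.994). Acadl over Acadm and Acadvl over Acadm would then stay apart.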

Additional observations from a re-analysis of the deposited data

How the results depend on the processing

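The count of enzymes called stayed at 0 in every comparison under every alternative run, except that DESeq2 called 1 (Cpt1b, -0.21) in LD against 6M_UT. With the 9-month groups exchanged, as the treatment field has them, the median log2 difference of the 10 enzymes was 0.041 in detraining and -0.012 in the difference of effects. Leaving out 1 library at a time, the medians ran from 0.0093 to 0.157 in training (lowest without 6M_UT replicate 1), from -0.0893 to 0.0054 in detraining, from -0.185 to -0.016 in the difference (lowest without 6M_UT replicate 3), from -0.19 to -0.0668 with age, from -0.0423 to 0.121 in LD against 6M_UT (highest without 6M_UT replicate 3) and from -0.0982 to -0.0248 in LD against 6M_PoW. A single enzyme's fitted difference changed sign under some setting other than the exchange, without passing the test, for 3 enzymes in training, 3 in detraining, 3 in the difference, 2 with age, 5 in LD against 6M_UT and 1 in LD against 6M_PoW. The cause was not tested.

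Same-numbered libraries of different groups did not all deviate together (r from -0.33 to 0.25, 5 of 18 pairs over 0.1). Different-numbered ones spanned a like range, from -0.32 to 0.34. With 3 libraries a group this check cannot exclude that the numbers pair the samples. With a replicate block 0 enzymes were called, the medians were 0.09, -0.04, -0.09 and -0.14 in training, detraining, their difference and age, and calls over all genes went from 0 to 1 in training and from 2 to 5 with age.

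Calls over all genes depended on the tool and the libraries. DESeq2 called 112 in training against edgeR's 0, 30 against 3 in detraining, 111 against 4 in the difference, 58 against 2 with age, 1190 against 757 in LD against 6M_UT and 675 against 365 in LD against 6M_PoW. limma-voom called 0 in detraining, the difference and age. Without a filter the counts were 8 in training, 10 in the difference and 10 with age, and with the stricter filter 0 in detraining and age. With only the groups compared they were 4, 18, 10 and 387 in training, detraining, age and LD against 6M_UT, with library totals 7 for age, and with all 15 libraries 4 for age. Exchanged 9-month groups gave 0 in the difference and in age. LD libraries counted as trained gave 29 in training and 2 in the difference, and counted as untrained 1 in the difference. Leaving out 1 library gave 0 to 10, 1 to 6, 0 to 26, 1 to 15, 288 to 827 and 157 to 428 calls in the order above. The number of libraries, 3 a group, limits what could be detected, as the intervals beside the values show.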
